A study of Mus musculus with 23 samples.

Results

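The odorant receptor genes numbered Olfr720 to Olfr751 and Olfr1506 to Olfr1513 were followed across the 23 libraries. They were taken by symbol, with pseudogene symbols and the 3 genes Olfr745, Olfr749 and Olfr1509 left out, which gave 34 of the 1122 receptor symbols and of the 23481 gene symbols listed. With an anti-pS6 antibody, RNA was pulled down from mouse olfactory epithelium together with ribosomes whose protein S6 was phosphorylated (pS6), a mark that ribosomes gain when a neuron has been active, and was then sequenced. The mice were C57BL/6 at postnatal day 21, with no genetic change given, and were exposed for 1 h to a control or to an odor. The acetophenone experiment comprised 5 control libraries (litters 1 to 5), 3 libraries at 1% acetophenone (litters 3 to 5) and 3 at 100% acetophenone (litters 1 to 3). In the experiment with TMT, trimethylthiazoline, a component of fox odor, each of litters 1 to 4 gave 1 control, 1 library at 1% and 1 at 100%. The labels do not say what the control was, nor whether several animals were pooled in a library.

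Odorant receptors are membrane proteins that couple to the G protein subunit Gnal (Golf) and, through the cyclase Adcy3 and a cyclic nucleotide-gated channel, excite the neuron when an odor binds. A mature olfactory neuron transcribes 1 allele of 1 receptor gene, so receptor mRNA in pS6-bound RNA is used to read out which neurons were active. Receptor genes lie in clusters that arose by repeated duplication, and neighbours in a cluster are often of 1 subfamily. The best studied cluster among those described here holds Olfr1507 (MOR28) and Olfr1508 (MOR10), near the H element, an enhancer that promotes the choice of receptor genes beside it.

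By the gene annotation of the GRCm38 build (mm10), 33 of the 34 genes were on chromosome 14, with longest coding sequences of 921 to 1062 bases. Olfr720 (subfamily MOR274) stood alone at chr14:14175130-14176080. A cluster with 25 of the 34 genes, from Olfr722 to Olfr748, spanned 817.0 kb at chr14:49894258-50711255. It began with the subfamilies MOR241, MOR246 and MOR247, went on with the single genes Olfr734 (MOR242) and Olfr735 (MOR243), and ended with subfamily MOR106. Of the 13 MOR106 genes annotated there, 11 are among the 34, and the other two are Olfr745 (chr14:50642195-50643369) and Olfr749 (chr14:50736219-50744324), which the choice of members left out. Olfr750 (MOR103) lay apart at chr14:51070311-51071442. The MOR28 cluster, with 6 of the genes from Olfr1513 to Olfr1507, spanned 146.6 kb at chr14:52349103-52495695. Olfr1506 (MOR228), the remaining gene, is annotated on chromosome 2 (chr2:90217395-90224471), so its symbol falls in the number range without a place in these clusters.

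Many of these genes differ by few bases, which decides how many reads can be assigned to 1 of them. The first 90 coding bases (GENCODE annotation of GRCm38, reading strand, 5′ to 3′) are shown for the genes on which the values below turn. Capitals mark bases that differ from the first gene of each set. For MOR106 the set is Olfr744 at chr14:50618224-50618313 (plus strand), Olfr738 at chr14:50413546-50413635 (plus strand) and Olfr743 at chr14:50533414-50533503 (plus strand), with 7 differing bases in each of Olfr738 and Olfr743.
Olfr744: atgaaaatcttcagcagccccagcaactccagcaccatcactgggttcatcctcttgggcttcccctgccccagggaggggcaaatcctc
Olfr738: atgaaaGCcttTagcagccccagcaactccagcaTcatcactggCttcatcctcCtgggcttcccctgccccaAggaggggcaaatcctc
Olfr743: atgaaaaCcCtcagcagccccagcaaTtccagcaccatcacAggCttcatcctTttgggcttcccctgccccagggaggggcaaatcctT

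Olfr723 at chr14:49929453-49929542 (minus strand) and Olfr724 at chr14:49960981-49961070 (minus strand) are the closest pair among the clustered genes, with 1 differing base in the window.
Olfr723: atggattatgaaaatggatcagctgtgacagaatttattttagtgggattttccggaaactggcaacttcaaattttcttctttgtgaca
Olfr724: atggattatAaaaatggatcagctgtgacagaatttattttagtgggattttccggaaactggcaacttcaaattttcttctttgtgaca

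In the MOR28 cluster, Olfr1510 at chr14:52410781-52410870 (minus strand) and Olfr1511 at chr14:52390682-52390771 (minus strand) differed by 2 bases in the window.
Olfr1510: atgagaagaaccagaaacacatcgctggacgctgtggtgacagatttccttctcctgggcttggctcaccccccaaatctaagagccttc
Olfr1511: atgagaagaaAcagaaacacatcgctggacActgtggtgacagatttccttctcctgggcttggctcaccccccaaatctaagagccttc

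Olfr1507 at chr14:52490873-52490962 (minus strand) and Olfr1508 at chr14:52463918-52464007 (minus strand) differed by 6.
Olfr1507: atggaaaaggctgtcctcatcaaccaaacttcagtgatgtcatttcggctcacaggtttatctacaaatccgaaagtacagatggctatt
Olfr1508: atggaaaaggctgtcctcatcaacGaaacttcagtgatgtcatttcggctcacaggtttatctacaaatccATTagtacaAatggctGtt

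In MOR246, Olfr725 at chr14:50035312-50035401 (minus strand) served as the first of its set, Olfr726 at chr14:50084590-50084679 (minus strand) differed from it by 2 bases and Olfr727 at chr14:50126579-50126668 (plus strand) by 3.
Olfr725: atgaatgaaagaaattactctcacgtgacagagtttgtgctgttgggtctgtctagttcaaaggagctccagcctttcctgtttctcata
Olfr726: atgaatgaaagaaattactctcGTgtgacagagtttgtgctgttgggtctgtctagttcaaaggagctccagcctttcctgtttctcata
Olfr727: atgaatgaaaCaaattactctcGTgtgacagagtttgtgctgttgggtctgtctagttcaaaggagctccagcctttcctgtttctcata

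Over whole coding sequences, 22 of the 34 genes had another receptor at 92.12 to 98.49% identity, and for 20 of these that copy was also among the 34. Their uniquely aligned reads came to between 0 and 70.1% of the estimated counts, in which reads with more than 1 alignment are included, with a median of 29.8%. Olfr723 and Olfr724, 98.49% identical to each other, kept 12.6% and 11.3%. Olfr742, 96.36% identical to Olfr741, kept 13.1%. The 10 genes whose closest receptor was at 58.1 to 77.06% identity kept 93.2 to 100%, and Olfr738 and Olfr744, at 87.25% and 83.59%, kept 56.3% and 62.6%. Olfr1506, 98.38% identical to Olfr1274-ps, had 0 unique counts in all 23 libraries. Over the 34 genes together the unique share was 37.9%, against 63.2% over all receptors, so levels of the near-identical genes are understated here and reads of such a pair cannot be told apart where both carry the same bases.

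**Figure D1:**
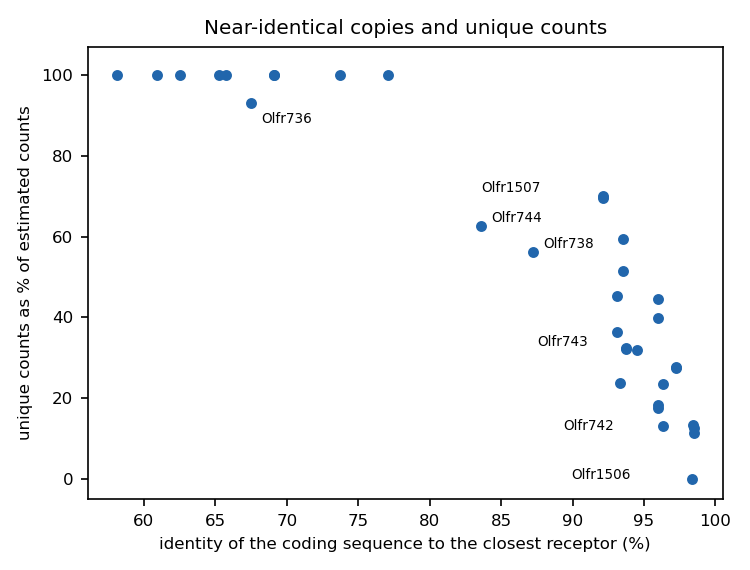
Unique counts as a percentage of estimated counts over all 23 libraries (vertical axis) against the identity of each gene's coding sequence to its closest receptor in percent (horizontal axis), 1 point per gene. The 10 genes under 80% identity sit at 93.2% or above, and genes above 90% identity reach from 70.1% down to 0, the value of Olfr1506.

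Unique counts per library summed to 2118099 to 9526932. A count of 0 allows up to 3 counts, which is 0.315 to 1.42 CPM (counts per 1000000 counts of the library) before scaling. Receptors together took 0.134 to 0.825% of the counts in acetophenone libraries and 0.0232 to 0.27% in TMT libraries. The markers of mature olfactory neurons (11 of 11 listed, Omp and Gnal among them) were present in every group, with summed levels of 1937 to 7455 CPM over all libraries. Levels in CPM were scaled by the trimmed mean of M values (TMM), which the range of 0.315 to 1.42 CPM above was not.

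The 34 genes took a small share of all receptor counts, and the ranges of that share overlapped between the doses of each experiment. In the acetophenone experiment it averaged 3.71 ± 1.03% in controls (SD, n = 5), 3.88 ± 0.924% at 1% (n = 3) and 3.52 ± 0.447% at 100% (n = 3). In the TMT experiment it averaged 1.56 ± 0.874% in controls, 2.27 ± 1.23% at 1% and 1.88 ± 0.495% at 100% (n = 4 each). The experiments differ in litters and in depth of receptor reads, and the odor cannot be told apart from these between them. The summed level averaged 115 ± 74.4 CPM in acetophenone controls, 137 ± 83.9 CPM at 1% and 197 ± 100 CPM at 100%. These acetophenone means cover different litters (1 to 5, 3 to 5 and 1 to 3), so they do not measure a step with dose. Within litters the summed level was 1.59, 1.06 and 1.69 times the control at 100% (litters 1 to 3). At 1% it was 1.36, 0.94 and 2.50 times the control (litters 3 to 5). In the TMT experiment the means were 11.4 ± 14.9 CPM in controls, 33.8 ± 47.6 CPM at 1% and 24.1 ± 16.6 CPM at 100%, and litter 1 held the highest value of each TMT dose. In RNA pulled down from tissue, fewer neurons with a receptor, less RNA per neuron and less pS6 on their ribosomes cannot be told apart. No library of RNA before the pull-down is among the 23.

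**Figure D2:**
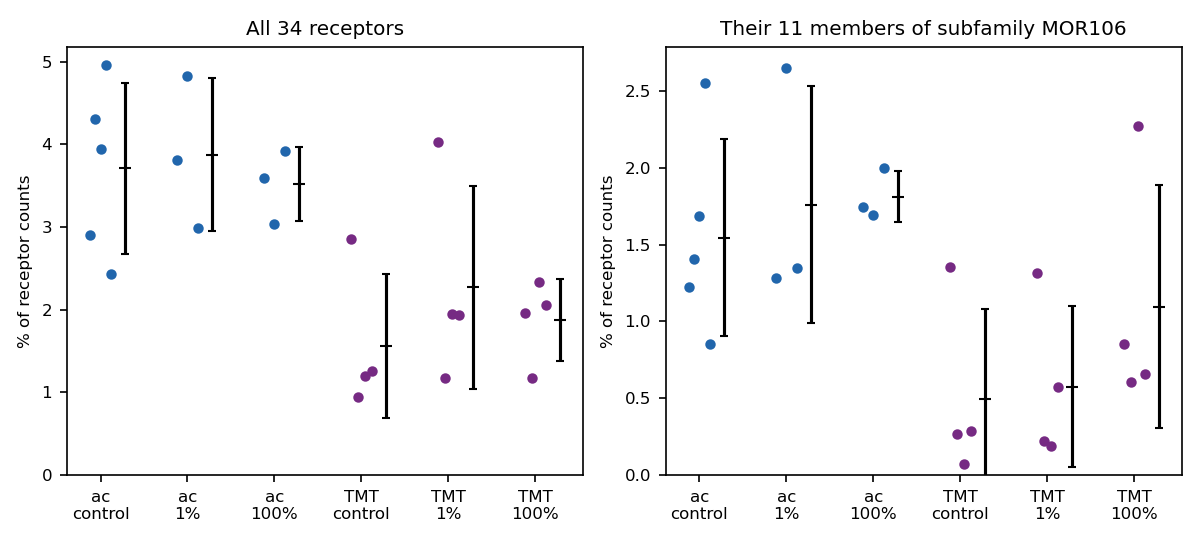
Counts of all 34 genes (left) and of the 11 MOR106 genes among them (right) as a percentage of all receptor counts, 1 point per library, with the mean and SD (bars, cut at 0) beside the points of each dose of acetophenone (ac) and TMT. The points of the doses overlap within each experiment, and TMT litter 1 holds the highest control point.

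Between 19 and 30 of the genes had at least 1 unique count in an acetophenone library, and between 5 and 25 in a TMT library. 12 genes had counts in every acetophenone library, among them Olfr1507, Olfr727, Olfr740 and Olfr743, and none did in every TMT library. 5 genes, Olfr1506, Olfr724, Olfr728, Olfr730 and Olfr733, had at most 10 counts over the 11 acetophenone libraries.

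In acetophenone controls the levels were uneven, with 50.9% of the summed mean level on Olfr743, Olfr727, Olfr740 and Olfr722. Per kilobase of coding sequence, the order of mean levels was Olfr743 (20.7 CPM per kb), Olfr727 (19.1), Olfr740 (11.1), Olfr722 (10.9), Olfr1507 (9.25) and Olfr1511 (6.98), and these are unique counts, which the near-identical genes lose in unequal parts. The spread over litters was as wide as the steps in this order: Olfr727 had 0.954, 47.8, 28.3, 15.5 and 0.284 CPM in the controls of litters 1 to 5, and Olfr743 had 11.8, 20.5, 32.4, 29.8 and 1.99 CPM. Olfr722 had 0.954, 39.0, 5.89, 4.70 and 0 CPM in the same controls. Litter 5 was the lowest for Olfr727, Olfr743 and Olfr722, no neighbours in the order differed beyond their spread, and Olfr722 rested on litter 2. In TMT controls the highest per kilobase were Olfr1511 (2.82 CPM per kb), Olfr743 (2.07), Olfr720 (1.18), Olfr744 (1.17), Olfr1510 (0.819) and Olfr742 (0.663). For Olfr744, the 4.54 CPM of litter 1 was the only control value above 0, and Olfr1511 ranged over the TMT controls between 0 and 7.16 CPM.

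**Figure D3:**
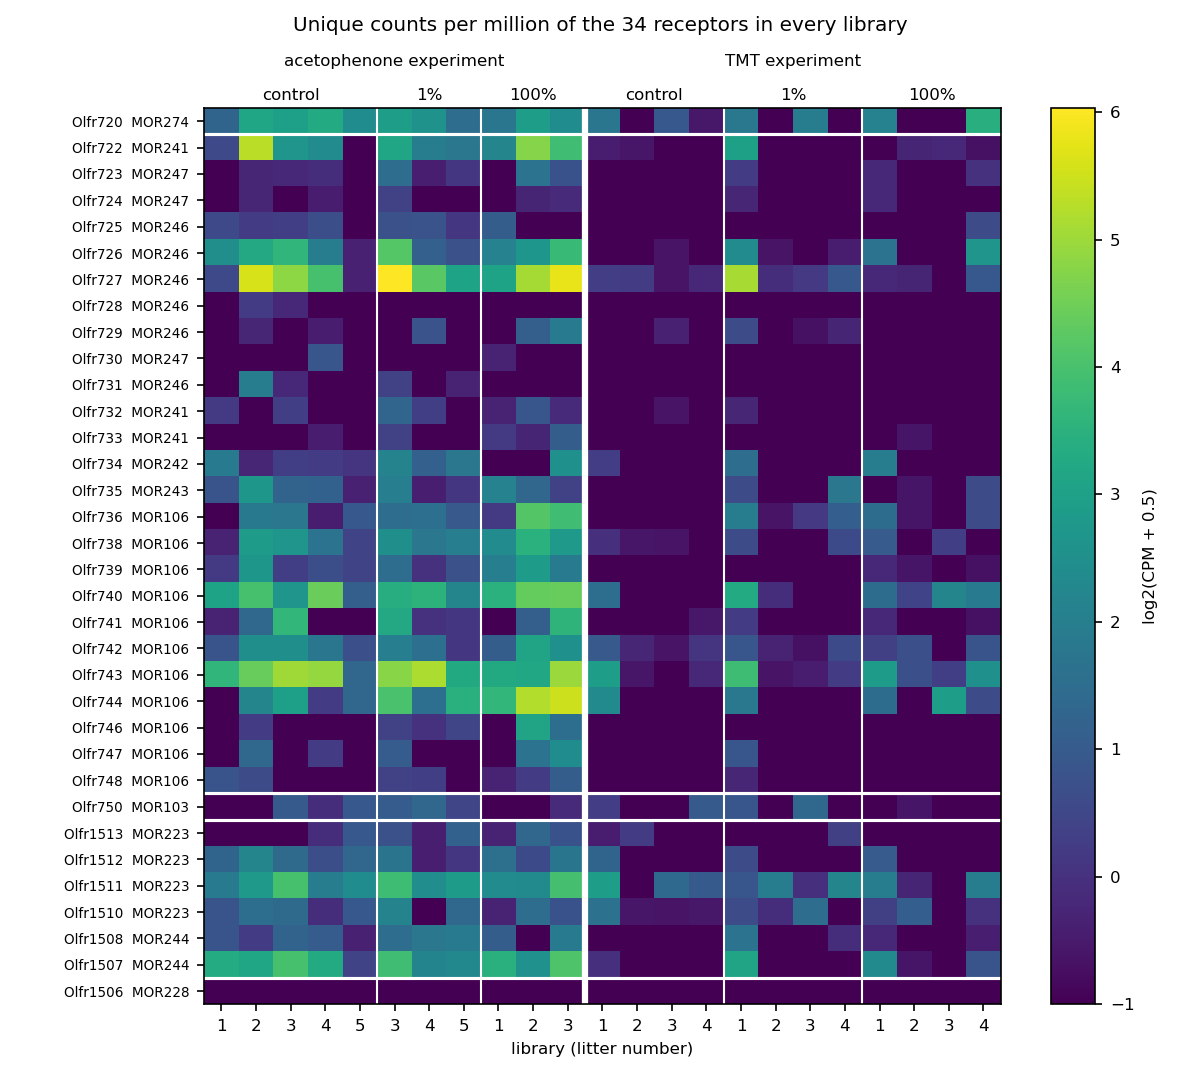
Level of each of the 34 genes (rows, in genome order with their subfamilies; white lines part the clusters) in each library (columns, by dose and litter), as log2(CPM + 0.5). Most rows are dark in litters 2 to 4 of the TMT experiment, Olfr1506 is at 0 in every column, and Olfr744 is brightest at 100% acetophenone.

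The question behind the acetophenone libraries was which receptors belong to neurons that the odor activates. At 100% acetophenone, Olfr744 of subfamily MOR106 had the largest log2 fold change and the smallest p of the 12 genes tested. It had 38, 109 and 111 unique counts in the 100% libraries of litters 1, 2 and 3, against 0, 12 and 20 in the controls of these litters. As levels these were 12.1, 36.5 and 44.8 CPM at 100% acetophenone and 0, 4.10 and 7.36 CPM in controls. Every 100% library was above every control, and the ratio of 100% to control within litters was at least 12.7 in litter 1, where the control was set at the limit of 3 counts, 8.91 in litter 2 and 6.09 in litter 3. The fitted log2 fold change was 3.01 (SE 1.12, unadjusted p = 0.0301, adjusted p = 1) without the litter as a block and 3.27 (SE 0.55, unadjusted p = 0.000166, adjusted p = 0.12) with the block, by edgeR's quasi-likelihood test with Benjamini-Hochberg adjusted p-values over the 11564 genes that passed the filter. Neither adjusted value passed 0.05.

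Whether Olfr744 was called depended on the setting. With the litter block it was called when litter 1 was left out (log2 fold change 2.82, adjusted p = 0.0153), when libraries were scaled to their receptor counts (2.72, adjusted p = 0.04997) and when no filter on low counts was used (3.26, adjusted p = 1.293e-08). The unfiltered fit used the same libraries and block as the filtered one, which gave 3.27 (adjusted p = 0.12). Its far smaller p came without a larger difference, and the reason was not tested. Over all 20 settings its adjusted p ranged from 1.293e-08 to 1 and its log2 fold change from 2.40 to 3.95. With estimated counts in place of unique ones and the block it was 3.23 (SE 0.56, adjusted p = 0.162).

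How much of its subfamily Olfr744 made up depended on whether the left-out MOR106 genes were counted. Olfr745 had 181, 1019 and 666 unique counts at 100% acetophenone in litters 1 to 3, against 25, 128 and 54 in controls, and Olfr749 had 12, 134 and 111, against 3, 23 and 11. Both were higher with odor in each litter. Of the counts of all 13 MOR106 genes, Olfr744 made up 11.6% at 100% in litter 1 (95% Wilson interval 8.56 to 15.5%), against 0 of 102 counts in the control (up to 3.63%). In litter 2 it made up 7.2% at 100% (6.00 to 8.61%) and 3.46% in the control (1.99 to 5.95%). In litter 3 it made up 9.75% at 100% (8.16 to 11.6%) and 7.63% in the control (5 to 11.5%), where the intervals overlapped.

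Among the 11 members alone the share of Olfr744 was 28.1, 30.1 and 30.8% at 100% in litters 1 to 3, against 0, 6.12 and 10.2% in controls. With estimated counts it was 17.4, 16.6 and 18.7% of the 11 at 100%, against 0, 3.05 and 5.34% in controls. The unique share of Olfr744 itself was 62.6%, that of Olfr743 31.9% and that of Olfr742 13.1%, so unique counts give Olfr744 more weight. Not every control was low: in litter 5 Olfr744 made up 20% of the 11 on 7 of 35 counts, and in the TMT control of litter 1 it made up 28.4% on 19 of 67 counts (interval 19.0 to 40.1%), as large a share of the 11 as at 100% acetophenone. All these intervals cover counting error only.

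Of the 34 genes, 12 passed the filter on low counts at 100% acetophenone, and none was called, either without the block, where 0% of genes were called, or with it, where 0.0951% were. DESeq2, without the block, called none of them either, and 1 of the 12, Olfr744, had an unadjusted p under 0.05 in either edgeR fit. With the block, 7 of the 12 had a positive log2 fold change, as had 232 of the 324 receptors and 5873 of the 11564 genes tested. The median of the 12 was 0.46, against 0.41 over the 324 receptors and 0.01 over all genes. 5 of the 12 were higher than the control in every litter, where 15.4% of all genes tested and 32.7% of the 324 receptors were, and these were Olfr738, Olfr739, Olfr740, Olfr742 and Olfr744. 1 of the 12, Olfr743, was lower in every litter, where 12.7% of all genes and 8.33% of receptors were. Olfr744 was the only one of the 12 whose groups did not overlap, with 1.83% of all genes and 10.2% of receptors not overlapping in the higher direction. In the same litters the summed markers of mature neurons were 1.14 to 1.41 times as high with 100% acetophenone as in the control, and their part in these values was not tested.

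All 5 genes that were higher in each litter were of MOR106, a subfamily with 6 genes among the 12. Their controls alone would not have carried Olfr744 (0, 12 and 20 counts), Olfr738 (1, 20 and 16), Olfr739 (2, 18 and 2) or Olfr742 (4, 15 and 14) past the filter. These genes passed through their odor libraries, so their being higher with odor is partly set by the filter. Olfr740 had 10.8, 20.1 and 20.6 CPM at 100% acetophenone in litters 1 to 3, against 7.95, 15.4 and 5.89 CPM in controls (log2 fold change 0.83, SE 0.42, adjusted p = 0.897 with the block). Olfr739 had 3.49, 6.70 and 3.23 CPM, against 0.636, 6.15 and 0.736 CPM in controls (1.26, SE 0.79, adjusted p = 0.897). For both genes the groups overlapped, and in litter 2 the pair of Olfr739 values was nearly level. Olfr738 (1.05, SE 0.72) and Olfr742 (0.32, SE 0.64) had smaller differences relative to their error, and in litter 3 they were 1.10 and 1.02 times the control.

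Olfr743, 94.53% identical to Olfr742, had a negative log2 fold change at 100% acetophenone. It had 9.21, 8.71 and 31.1 CPM at 100%, against 11.8, 20.5 and 32.4 CPM in controls (log2 fold change -0.54, SE 0.35, adjusted p = 0.897 with the block). The groups overlapped, and the difference lay mainly in litter 2.

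The summed level of the 11 MOR106 members was 1.82, 1.81 and 2.01 times the control at 100% acetophenone in litters 1 to 3. With Olfr745 and Olfr749 added it was 3.21, 4.28 and 4.77 times the control. As a share of receptor counts, the 11 members were at 1.42, 1.20 and 1.19 times the control by unique counts, but at 1.03, 0.99 and 0.991 times by estimated counts, so no rise in share is given for them. The share of all 13 was 2.51, 2.84 and 2.81 times the control by unique counts and 1.59, 1.94 and 2.04 times by estimated counts.

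5 further MOR106 members had too few counts for the test. Olfr736, the most distant of the subfamily at 67.52% identity to its closest member, had 2, 52 and 35 unique counts at 100% acetophenone in litters 1 to 3, against 0, 9 and 8 in controls. Olfr746, 93.74% identical to Olfr748, had 0, 24 and 6 counts at 100%, against 0, 2 and 0 in controls. In litters 2 and 3 both genes were higher with odor, by 5.66 and 4.80 times for Olfr736, while litter 1 had 2 counts or fewer in each library. Olfr741, Olfr747 and Olfr748 had at most 28, 12 and 4 counts in any 100% library. Counting untested genes too, 9 of 11 MOR106 genes and 10 of the other 23 had a higher mean level at 100% acetophenone than in the controls of the same litters. The same count was not made over all receptors. Of the 324 receptors tested, 232 had a positive log2 fold change with the block, so most receptors were higher too. Some genes in these counts rest on few reads: Olfr748, counted as higher, had 1, 2 and 4 counts at 100%, against 4, 3 and 0 in controls.

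**Figure D4:**
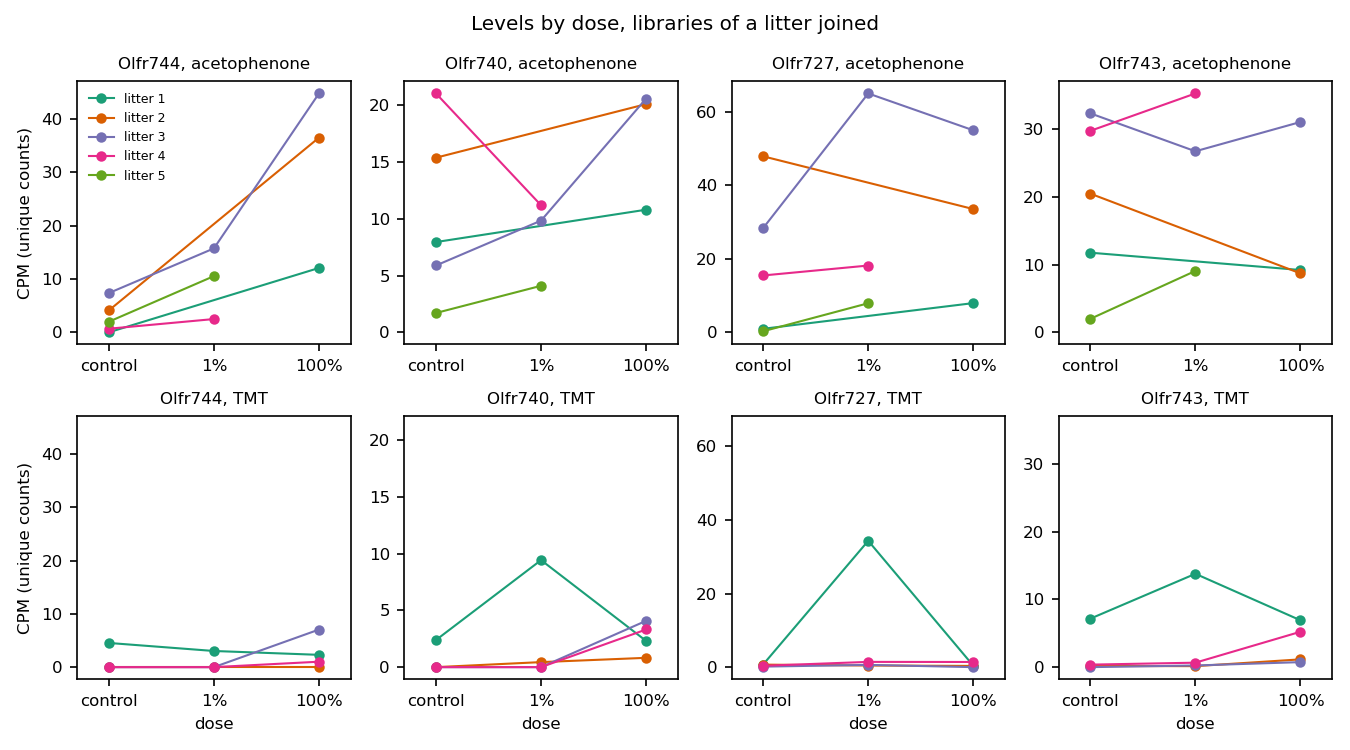
CPM of Olfr744, Olfr740, Olfr727 and Olfr743 (columns of panels) by dose in the acetophenone experiment (top) and the TMT experiment (bottom), with points of 1 litter joined by a line. Olfr744 lies above its own control in every acetophenone pair, the lines of the other 3 genes go both ways in at least 1 experiment, and most TMT points lie near 0 outside litter 1.

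The other tested genes of the large cluster showed no common direction at 100% acetophenone. Olfr727 (MOR246) had 7.94, 33.5 and 54.9 CPM at 100%, against 0.954, 47.8 and 28.3 CPM in controls (0.68, SE 0.48, adjusted p = 0.897 with the block). It was higher in litters 1 and 3 and lower in litter 2. Olfr726 (MOR246) had 3.81, 6.03 and 12.9 CPM, against 5.09, 8.88 and 11.8 CPM in controls (-0.28, SE 0.48, adjusted p = 0.962). Olfr722 (MOR241) had 4.13, 26.5 and 14.1 CPM, against 0.954, 39.0 and 5.89 CPM (0.60, SE 0.52, adjusted p = 0.905). For all 3 of these genes the groups overlapped and the litters disagreed. Olfr720, alone on its stretch of chromosome 14, had 2.86, 7.04 and 4.85 CPM, against 1.91, 8.20 and 7.36 CPM in controls (-0.14, SE 0.60, adjusted p = 0.978).

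In the MOR28 cluster, Olfr1507 had 10.5, 5.36 and 16.6 CPM at 100% acetophenone in litters 1 to 3, against 9.54, 8.20 and 15.5 CPM in controls (-0.12, SE 0.41, adjusted p = 0.978 with the block). Its sign turned with estimated counts (0.03) and without single libraries, so no direction is given. Olfr1511 had 4.76, 4.69 and 14.9 CPM, against 3.18, 6.49 and 15.5 CPM (-0.01, SE 0.50, adjusted p = 1). In both genes litter 3 was the highest of each group, and the groups overlapped. Olfr1508, which shares 92.12% of its coding sequence with Olfr1507, had 1.59, 0 and 3.23 CPM at 100% and 1.27, 0.683 and 1.84 CPM in controls, and was too low to test. The 6 genes of this cluster together averaged 0.526 ± 0.3% of receptor counts at 100% acetophenone (n = 3). Over all 5 controls the mean was 0.770 ± 0.193%, and the ranges overlapped. Within litters 1 to 3 this share was 0.909, 0.467 and 0.635 times the control at 100%. At 1% it was 0.728, 0.788 and 0.855 times the control in litters 3 to 5. The share of unique counts was thus lower with odor in every pair, which was not tested, and the control of litter 3 entered 1 pair of each dose. By estimated counts the share was nearly level in litter 1 at 100% (1.155%, against 1.157% in the control). It was also nearly level in litter 5 at 1% (1.58%, against 1.617%). The summed CPM of the 6 genes went both ways, at 1.17, 0.705 and 1.08 times the control at 100% and 1.03, 0.761 and 1.74 times at 1%.

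At 1% acetophenone Olfr744 was again higher in each litter. It had 15.7, 2.49 and 10.5 CPM at 1% in litters 3, 4 and 5, against 7.36, 0.672 and 1.99 CPM in controls. The unique counts behind them were 40, 10 and 36 at 1%, against 20, 3 and 7. The groups overlapped, because the control of litter 3 was above the 1% library of litter 4, and the log2 fold change was 1.56 (SE 1.01, adjusted p = 1) without the block and 1.72 (SE 0.48, unadjusted p = 0.00739, adjusted p = 0.43) with it. The control of litter 3 entered both dose comparisons. Of the counts of all 13 MOR106 genes, Olfr744 made up 9.64%, 3.28% and 22.2% at 1% in litters 3 to 5, against 7.63%, 1.02% and 18.9% in the controls, and the 95% Wilson intervals overlapped in all 3 litters. Among the 11 members alone the shares were 20.2%, 4.2% and 33.0% at 1%, against 10.2%, 1.14% and 20% in the controls, with overlap in litters 4 and 5.

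None of the 10 genes tested at 1% acetophenone was called, without the block (0% of 12077 genes called) or with it (0.00828%), and DESeq2 called none. With the block 2 of the 10, Olfr744 and Olfr727, had an unadjusted p under 0.05, both higher, and without it none had. At this p with the block, 30 of the 236 receptors tested were higher and 3 lower. Of all 12077 genes, 581 were higher and 447 lower. The same 2 were the only ones higher in every litter, where 15.9% of all genes and 27.1% of the 236 receptors tested were. Their controls alone would not have carried Olfr744 (20, 3 and 7 counts) or Olfr727 (77, 69 and 1) past the filter. Both genes needed their odor libraries to pass, so their being higher with odor is partly set by the filter. Olfr727 had 64.9, 18.1 and 7.90 CPM at 1% in litters 3 to 5, against 28.3, 15.5 and 0.284 CPM in controls (1.20, SE 0.50, adjusted p = 0.573 with the block). The pair of litter 4 was nearly level, and without the 1% library of litter 3 the fit without the block gave -0.17. Olfr720 was lower in every litter, where 15.5% of all genes and 6.78% of receptors were, with 7.08, 5.47 and 2.34 CPM at 1% against 7.36, 9.40 and 4.82 CPM in controls (-0.59, SE 0.43, adjusted p = 0.747). Olfr743 had 26.8, 35.3 and 9.07 CPM at 1%, against 32.4, 29.8 and 1.99 CPM in controls (0.44, SE 0.39, adjusted p = 0.796), and with estimated counts and no block the sign turned. Olfr1507 had 14.2, 3.98 and 4.39 CPM at 1%, against 15.5, 9.40 and 0.851 CPM in controls, with litters going both ways and a log2 fold change of 0 with the block. None of the 10 had groups that did not overlap, where 1.67% of all genes were apart in the higher and 2.02% in the lower direction. The median of the 10 was 0.36, against 0.48 over the 236 receptors tested and 0.01 over all genes.

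**Figure D5:**
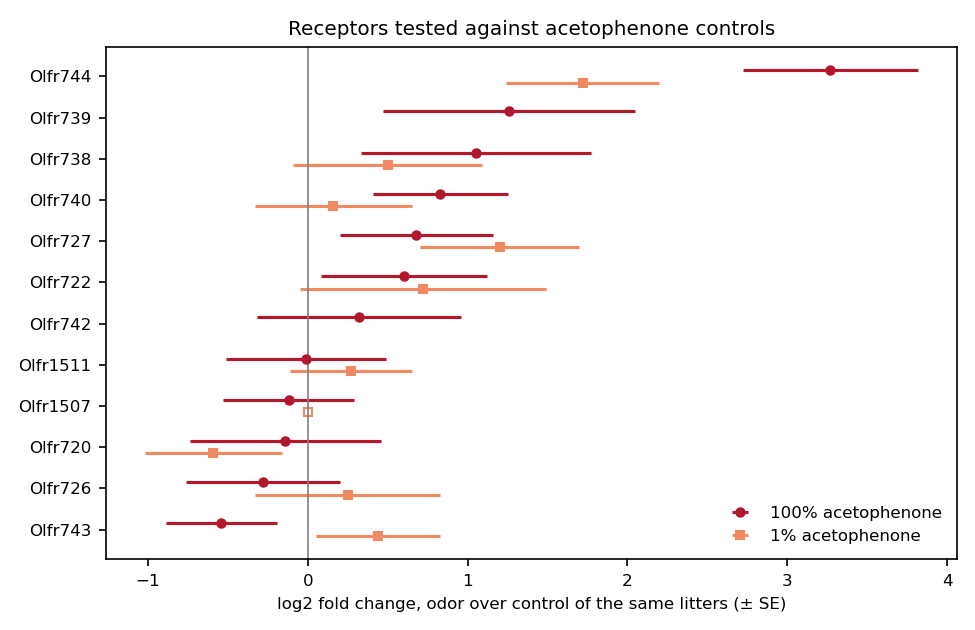
log2 fold change with its SE (bars) of each gene tested at 100% acetophenone (circles) and 1% acetophenone (squares) against the controls of the same litters, with litter as a block, sorted by the value at 100%. Olfr744 lies farthest right at both doses (3.27 and 1.72), Olfr739 and Olfr742 were not tested at 1%, and the open square of Olfr1507 (0) is drawn without a bar.

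The doses of acetophenone were also set against each other in 1 fit of the 11 libraries in which litter was a block, because litter 3 alone had both. Olfr744 was higher at 100% than at 1% by a log2 fold change of 1.55 (SE 0.66, unadjusted p = 0.0382, adjusted p = 0.785). None of the 14 genes tested was called, and 0% of 12873 genes were, in this fit or without the block. DESeq2 called none, and Olfr744 was the 1 gene of the 14 with an unadjusted p under 0.05 in the fit with the block. At this p 22 of the 408 receptors tested were higher and 11 lower, and of all genes 453 were higher and 354 lower. In litter 3, where both doses were measured, Olfr744 had 7.36 CPM in the control, 15.7 CPM at 1% and 44.8 CPM at 100%. Olfr740 had 5.89, 9.84 and 20.6 CPM at control, 1% and 100% in the same litter, while Olfr743 had 32.4, 26.8 and 31.1 CPM.

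In the TMT experiment the genes were near the limit of detection in most libraries, and 5 of 34 were tested. None was called at 100% TMT without the block (0% of 13233 genes called) or with it (2.37%), nor at 1% TMT without the block (0%) or with it (0.00756%), and DESeq2 called none of those it gave an adjusted p. At 100% TMT, 2 of the 5, Olfr740 and Olfr743, had an unadjusted p under 0.05 with the block, both higher. At this p 37 of the 135 receptors tested were higher and 5 lower, and of all 13233 genes 1509 were higher and 1084 lower. Without the block none of the 5 had such a p at 100% TMT, and at 1% none had in either fit. Controls alone would not have carried Olfr740 (10, 0, 0 and 0 counts), Olfr743 (30, 1, 0 and 2) or Olfr744 (19, 0, 0 and 0) past the filter. These genes needed their odor libraries to pass, so their being higher with odor is partly set by the filter. None of the 5 was higher in every litter at 100% TMT, where 13.2% of all genes and 24.4% of the 135 receptors tested were, or at 1% TMT, where 8.15% and 11.1% were, and none was lower in every litter, where 16% were at 100% and 8.84% at 1%. None had groups that did not overlap, where 4.22% of all genes were apart in the higher and 5.03% in the lower direction at 100% TMT, and 0.899% and 1.45% at 1%. With the block the median log2 fold change of the 5 was 2.75 at 100% TMT, against 1.35 over 135 receptors, and 0.60 at 1% TMT, against 0.88, but these medians rest on controls at or near 0 and are no measure of size.

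Olfr740 had 2.31, 0.821, 4.08 and 3.32 CPM at 100% TMT in litters 1 to 4, against 2.39, 0, 0 and 0 CPM in controls. Litters 2 to 4 were higher with odor and litter 1 was level. Olfr743 had 6.92, 1.15, 0.742 and 5.23 CPM at 100% TMT, against 7.16, 0.171, 0 and 0.371 CPM in controls. Olfr744 had 2.31, 0, 7.05 and 1.02 CPM at 100% TMT, against 4.54, 0, 0 and 0 CPM in controls. For Olfr740 the adjusted p with the block was 0.152, for Olfr743 0.184 and for Olfr744 0.277, and Olfr743 was called with the block and estimated counts (log2 fold change 3.77, SE 0.89, adjusted p = 0.0444).

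For all 3 of these MOR106 genes, litter 1 was not higher at 100% TMT than its control. Litter 1 held the highest control level of each, and 67 MOR106 counts in its control library against 2 to 6 in the controls of litters 2 to 4. Olfr744, without the 100% library of litter 3, had a log2 fold change of -0.01 without the block. Olfr720 had 3.85, 0, 0 and 10.2 CPM at 100% TMT, against 2.87, 0, 1.42 and 0.185 CPM in controls, and Olfr1511 had 3.46, 0.328, 0 and 3.44 CPM, against 7.16, 0, 2.13 and 1.48 CPM. Both overlapped their controls, and their litters went both ways. The summed markers of mature neurons were 0.992, 1.15, 1.45 and 1.80 times the control at 100% TMT in litters 1 to 4, and their part in these values was not tested.

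At 1% TMT, litter 1 set the highest level of most of these genes. Olfr727 had 34.3 CPM in that library and 0.443, 0.612 and 1.43 CPM at 1% in litters 2 to 4, against 0.716, 0.684, 0.142 and 0.371 CPM in controls. Olfr740 had 9.43, 0.443, 0 and 0 CPM at 1% TMT, against 2.39, 0, 0 and 0 CPM in controls (2.04, SE 1.68, adjusted p = 0.858 with the block). Without the 1% library of litter 1 the log2 fold changes of Olfr740 and Olfr743, in the fit without the block, turned to -1.89 and -2.37. Between the TMT doses Olfr744 differed most (100% over 1%, log2 fold change 4.69, SE 2, unadjusted p = 0.0425, adjusted p = 0.602 with the block), none of the 5 genes was called by edgeR or DESeq2, and 0% of all genes were called by edgeR in either fit. No level of Olfr744 was above 0 at 1% TMT outside litter 1, where it was 3.03 CPM.

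The responses to the odors at 100% were compared as acetophenone over its controls minus TMT over its controls. None of the 13 genes tested was called, without the block (0% of 13033 genes called) or with it (0.0691%), and DESeq2 called none. With the block 3 of the 13 had an unadjusted p under 0.05, all in the direction of a lower response to acetophenone. So had 75 of the 362 receptors and 1072 of the 13033 genes tested, with 2 receptors and 376 genes in the other direction. The median of the 13 was -1.03, against -1.63 over these receptors, so nothing particular to the 13 is read from this. The 3 were Olfr1507 (-3.58, SE 1.15, adjusted p = 0.301), Olfr726 (-4.43, SE 1.78, adjusted p = 0.397) and Olfr743 (-2.59, SE 1.04, adjusted p = 0.394). For Olfr1507 and Olfr726 the TMT controls were at or near 0 in all litters. Olfr744 differed by 1.09 (SE 2.74, adjusted p = 0.915), so a difference in its response to the odors was not detectable at this depth.

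Genes that act with the receptors were measured in the same fits, and the values given here are from the fit with the litter block. Of a list of 16 genes for receptor choice and transport, 14 were tested at 100% acetophenone and 0 were called, with a median log2 fold change of 0.23, against 0.01 over all genes. Of 13 transduction genes, 12 were tested, 0 were called and the median was 0.21. Of 16 activity genes, 9 were tested, the median was 0.83 and 1 was called, where 0.0951% of all genes were called as higher. This was Pcdh10, a protocadherin of activity-dependent axon sorting, which rose at 100% acetophenone by a log2 fold change of 2.11 (SE 0.20, adjusted p = 0.00679).

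At 100% TMT, 3 of 10 activity genes tested were called as higher, where 1.84% of all genes were, and the median was 1.16, against 0.02 over all genes. They were Nr4a1 (log2 fold change 1.78, SE 0.29, adjusted p = 0.0213), Nr4a2 (1.96, SE 0.45, adjusted p = 0.046) and Dusp1 (0.83, SE 0.19, adjusted p = 0.0477), which are early response genes. Of the 13 transduction genes, 1 was called as higher, the chloride importer Slc12a2 (3.20, SE 0.47, adjusted p = 0.0143), and the median was 0.17. Of the 16 genes for receptor choice and transport, 1 was called as lower, where 0.529% of all genes were: Lhx2, a transcription factor at receptor promoters and enhancers (-0.65, SE 0.15, adjusted p = 0.0496). The median of that list was -0.21. Without the block no gene of these lists was called at either odor, and at 1% of either odor 0 genes of the 3 lists were called in either fit.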

How the data were processed

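Bowtie, bedtools and the mm10 build were used by the authors, per the submitters' processing notes. Neither the versions nor the gene annotation is given in the sources used here. The deposited tables have no header. Their first value column holds whole-number raw counts, read from the values as counts of uniquely aligned reads, and the deposited last column holds estimated counts, in which reads with more than 1 alignment are divided by a rule that is not stated; it was rounded and used as an alternative. Whether reads were counted by strand is not given. The members and the gene lists were chosen with earlier results of these data known. The genes given by name and value were the 3 with the smallest p in each direction per odor comparison, the 6 highest in the controls of each experiment, Olfr1507 and Olfr1508; Olfr736, Olfr738, Olfr746 and others were named after their values were seen.

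Counts were fitted over all genes with edgeR 4.0.16 in R 4.3.3 (TMM, filterByExpr with a minimum count of 10, quasi-likelihood F test, 2-sided, Benjamini-Hochberg threshold 0.05), DESeq2 1.42.0 being an alternative. A gene could pass the filter through its odor libraries alone. The SE is the log2 fold change over the square root of F. Annotation came from GENCODE and RefSeq for GRCm38, and tables and figures from Python 3.11.15. Intervals and the limit of 3 counts cover counting error only, since reads carry no molecular identifiers.

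The labels give each library a litter, which pairs libraries across groups, so a fit that has litter as its replicate block stands beside the one without. Across genes, the deviations of same-litter libraries from their group means correlated at 0.56 to 0.79 (100% acetophenone with controls), 0.72 to 0.89 (1% acetophenone), 0.05 to 0.30 (100% TMT) and 0.02 to 0.35 (1% TMT). The highest correlation with another litter was -0.32 to -0.01, -0.74 to 0.58, -0.05 to 0.05 and -0.04 to 0.14 in the same order. At 1% TMT, litters 3 and 4 correlated less with their own litter (0.03 and 0.02) than with another (0.14 and 0.07). The pairing is thus weakly seen in the TMT experiment.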

Additional observations from a re-analysis of the deposited data

Results flagged for a closer look

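Of 60 sets of 4 or 5 libraries of 1 group checked for a library far from the others (levels of the named receptors, their sum and their share), 20 had one. The rate of about 1 in 20 that chance gives does not hold for these sets, because the genes share their libraries, and in 7 of the 20 every other library was at 0, so that any count stood apart (1 count for Olfr726 in the control of TMT litter 3, and 2 for Olfr1507 in that of litter 1). Of these, 9 lay in the 1% library of TMT litter 1. There the summed level was 105 CPM (5.46 to 14.5 CPM in the other litters), Olfr727 had 34.3 CPM, Olfr743 13.8, Olfr740 9.43, Olfr1507 8.08, Olfr722 7.41, Olfr726 4.71, Olfr744 3.03 and Olfr1508 2.69 CPM, and the highest value of any other litter among these genes was 1.43 CPM. In the control of TMT litter 1 the summed level was 33.7 CPM (2.39 to 4.82 CPM in the other litters) and the share of receptor counts 2.86% (0.942 to 1.25%). In that control Olfr743 had 7.16 CPM, Olfr744 4.54, Olfr1510 2.63, Olfr740 2.39 and Olfr1507 0.478 CPM. Olfr726 had 0.142 CPM in the control of TMT litter 3 and 0 in the others.

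In the acetophenone controls, Olfr1511 stood at 15.5 CPM in litter 3 (3.18 to 6.49 CPM in the others), Olfr722 at 39.0 CPM in litter 2 (0 to 5.89 CPM) and Olfr739 at 6.15 CPM in litter 2 (0.636 to 1.12 CPM).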

How the results depend on the processing

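No receptor of the 34 was called in 171 of 175 fits over the 7 comparisons. The pairing by litter (replicate block) alone left the count at 0 in each. In 3 fits with the block at 100% acetophenone the count was 1 (Olfr744): with receptor scaling, with no filter, and without litter 1, so that the count ran from 0 to 1 over the fits that leave out a library or litter. At 100% TMT it was 1 (Olfr743) with the block and estimated counts. Over all genes, 314 were called at 100% TMT with the block and 0 without it, and 11 and 0 at 100% acetophenone.

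Signs turned only where no fit of that comparison called the gene. With estimated counts, Olfr1507 was at 0.03 (100% acetophenone), 0.06 (1%) and 0.28 (1%, block), and Olfr743 at -0.09 (1% acetophenone). With receptor scaling at 1% TMT, Olfr743 was at -0.18 and, with the block, Olfr720 at -0.22. Leaving out 1 library, log2 fold changes at 100% acetophenone ranged from -0.86 to 0.16 for Olfr726, -0.53 to 0.33 for Olfr1507 and -1.32 to 0.07 for Olfr743. At 1% acetophenone they ranged from -1.03 to 0.52 for Olfr1507, -0.17 to 1.93 for Olfr727 and -0.38 to 0.58 for Olfr743. At 100% TMT they ranged from -1.06 to 0.66 for Olfr1511 and -0.01 to 6.95 for Olfr744. At 1% TMT they ranged from -5.75 to 5.11 for Olfr744, -1.89 to 6.89 for Olfr740, -2.37 to 4.3 for Olfr743 and -0.19 to 1.55 for Olfr720. With the block and 1 litter left out, turned values were Olfr1507 at 0.1 (100% acetophenone, litter 2), 0.13 and 0.73 (1%, litters 3 and 4), Olfr743 at -0.03 (1% acetophenone, litter 5), Olfr1511 at 0.24 (100% TMT, litter 3) and Olfr720 at -0.28 (1% TMT, litter 3). The cause was not tested. With estimated counts the mean share of receptor counts was 5.62% at 100% acetophenone (litters 1 to 3) and 6.35% in the controls (litters 1 to 5). Counts of 0 in many TMT libraries limit what can be seen there. Chosen after seeing the data, adding Olfr745 and Olfr749 put the mean MOR106 share of Olfr744 at 9.51% at 100% acetophenone and 6.21% in its 5 controls, and estimated counts at 17.5% and 3.46%, against 29.7% and 7.48% in unique counts of the 11 members.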
